A study of Mus musculus with 12 samples.

Results

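The Jun and Fos families and a set of early response genes were followed in mouse embryonic stem cells after 1 h of a degrader aimed at the release factor eRF1, which ends translation at stop codons. The set held 10 genes, Jun, Junb, Jund, Fos, Fosl1, Fosl2, Egr1, Ier2, Ier3 and Socs3, taken by symbol. All 10 were found both among the 22034 symbols of the footprint table and among the 49997 symbols of the RNA table. The cells were ES-E14TG2a, and in every group they carried eRF1 fused to a dTAG degron, a tag by which the compound dTAG-13 brings a protein to a ubiquitin ligase for destruction. Ribosome footprints, the pieces of mRNA shielded by ribosomes, were sequenced in Gcn2 knockout cells given 500 nM dTAG-13 for 1 h, in untreated Gcn2 knockout cells, in wild-type cells (Gcn2 intact) given the same treatment, and in untreated wild-type cells. Gcn2, encoded by Eif2ak4, slows initiation by phosphorylating eIF2 in response to amino acid shortage or stalled ribosomes. Poly(A) RNA libraries came from wild-type cells only, treated and untreated. Each group had 2 biological replicates, A and B, which makes 8 footprint and 4 RNA libraries. All groups were grown with LIF (1000 U/mL), the GSK3 inhibitor CHIR99021 (3 µM) and the MEK inhibitor PD0325901 (1 µM). The labels name neither a vehicle control nor treated cells without the tag, so effects of the compound itself cannot be told apart from those of eRF1 loss. The loss of eRF1 protein cannot be read from these counts. The labels also do not say whether the tagged lines were single clones.

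AP-1 is a dimer of a Jun protein with a Fos, Jun or ATF protein, held together by leucine zippers, and it binds short DNA elements in promoters and enhancers. Immediate early genes are transcribed within minutes of a stimulus, mostly through MAP kinases and serum response factor, with no need for newly made protein. Their mRNAs are typically short-lived, many of them through AU-rich elements, and they are known to accumulate when protein synthesis is blocked. Socs3 is a target of STAT3 that feeds back on LIF signalling, the route that keeps mouse embryonic stem cells undifferentiated.

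The promoters of Jun, Junb and Socs3 are shown because these were the 3 genes of the set whose mRNA rose. They are RefSeq sequences of GRCm38.p6, from 250 bases before to 50 bases after the annotated start, read 5′ to 3′ on the minus strand, at chr4:95052173-95052472 for Jun, chr8:84978699-84978998 for Junb and chr11:117969317-117969616 for Socs3. The starts of Jun and Junb are the ends of the annotated genes, while the start used for Socs3 (117969366) lies 970 bases inside the annotated gene. Capitals mark motif matches found by a search of both strands. The RefSeq promoter table held 7 of the 10 genes.
Jun: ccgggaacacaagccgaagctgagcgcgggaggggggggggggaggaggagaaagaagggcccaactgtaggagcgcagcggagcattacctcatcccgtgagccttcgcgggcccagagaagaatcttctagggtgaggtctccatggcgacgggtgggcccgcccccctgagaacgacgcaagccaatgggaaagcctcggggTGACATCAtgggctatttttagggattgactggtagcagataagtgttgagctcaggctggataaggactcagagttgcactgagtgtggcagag
Junb: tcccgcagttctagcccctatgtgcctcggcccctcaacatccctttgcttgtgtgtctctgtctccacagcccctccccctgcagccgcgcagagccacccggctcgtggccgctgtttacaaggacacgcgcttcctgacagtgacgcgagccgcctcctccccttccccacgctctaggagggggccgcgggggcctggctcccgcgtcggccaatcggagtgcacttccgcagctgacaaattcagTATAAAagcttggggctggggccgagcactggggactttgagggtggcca
Socs3: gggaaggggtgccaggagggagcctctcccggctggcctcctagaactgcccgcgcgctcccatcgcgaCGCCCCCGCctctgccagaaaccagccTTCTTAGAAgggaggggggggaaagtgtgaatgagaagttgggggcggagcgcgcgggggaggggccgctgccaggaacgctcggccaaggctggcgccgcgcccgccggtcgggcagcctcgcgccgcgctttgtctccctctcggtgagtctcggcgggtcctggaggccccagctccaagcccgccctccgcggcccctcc
Jun held TGACATCA, the variant AP-1 element known from its own promoter, from −45 to −38, counting the start used for each gene as base 1. This element was in 3.62% of the 32851 promoters in the table. Socs3 held the STAT motif TTCNNNGAA from −154 to −146, which was in 8.3% of promoters, and the EGR motif GCGGGGGCG on the other strand from −181 to −173, in 2.91%. Given the start used for Socs3, both of these matches lie inside the annotated gene. Junb held TATAAA from 1 to 6, in 13.6% of promoters. Of the other 4 genes with a promoter, Fos held TATAAA from −33 to −28 and Fosl2 the EGR motif from −79 to −71. None of the 7 windows held the AP-1 element TGACTCA (5.2% of promoters), the cyclic AMP element TGACGTCA (1.79%) or a CArG box (1.63%). Only sequences that fit these patterns exactly were sought. Sites farther from the start, or with other letters, would not be found, so the genes are not shown to lack such elements. No searched motif overlapped another in these windows.

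Footprint libraries held 7874804 to 19691716 counts and RNA libraries 17462458 to 24256097. Replicates of each group differed by more than counting error, with a chi-squared statistic per degree of freedom of 2.88 to 25.2. All 10 markers of naive embryonic stem cells were above 1 CPM in every library (counts scaled to a common library total), with summed levels of 5950 to 6610 CPM in footprints and 5190 to 5280 CPM in RNA. The 8 fibroblast markers summed to at most 9.29 CPM in footprints and 4.6 CPM in RNA, with Postn and Fap at 0 in all libraries. The 8 primitive endoderm markers, most of whose counts came from Lama1, summed to 115 and 143 CPM in treated and 115 and 103 CPM in untreated knockout footprints, against 152 and 140 CPM in treated and 109 and 99.7 CPM in untreated wild-type footprints. The 8 markers of primed cells summed to 59.6 to 85.5 CPM in footprints and 211 to 242 CPM in RNA. Of the primitive endoderm markers, 6 were tested in footprints by the method given below. After treatment 1 was called lower in knockout cells, where the median log2 change of the 6 was −0.26. In wild-type cells 1 was called higher, with a median of 0.38. Each is 16.7% of the 6, against 8.88% and 4.88% of all genes called. The part of these markers in the results below was not tested. In these bulk samples a change in RNA per cell and a change in the number of cells that express a gene cannot be told apart.

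After 1 h of dTAG-13, the mRNAs of Jun, Junb and Socs3 were more abundant in wild-type cells, by 1.75-fold, 1.56-fold and 1.2-fold. These were 3 of the 8 genes of the set that passed the filter on low counts, and all 3 rose. Over all 15955 genes tested in RNA, 26 (0.163%) passed an adjusted p of 0.05 in edgeR's quasi-likelihood test with Benjamini-Hochberg adjustment, 19 of them higher after treatment. Without adjustment, 4 of the 8 had an edgeR p under 0.05, where the share of all genes was 5.13%. The median log2 change was 0.37 for the 8 genes and 0 over all genes. The set was chosen with earlier results of these data known. Its shares here and below are therefore descriptions and not independent of the choice. Levels are given as CPM after TMM scaling, which do not account for transcript length and so are not compared between genes. Whether treated and untreated libraries overlap is given as a description only. With 2 libraries per group such separation can arise easily, and its share over all genes was not computed.

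Jun, the founding AP-1 subunit (gene at chromosome 4, 95049036 to 95052222 in GRCm38), had 10.8 and 10.1 RNA CPM in treated cells and 6.21 and 5.78 CPM in untreated cells. Both treated libraries lay above both untreated ones, and the log2 change was 0.80 (SE 0.151, edgeR adjusted p = 0.00336). This call was lost without treated library A (adjusted p = 0.0778) and in DESeq2 (adjusted p = 0.178). Junb, the Jun family member often made together with Socs3 on LIF or cytokine signals (chromosome 8, 84976909 to 84978748), had 37.9 and 37.5 RNA CPM with dTAG-13 and 22.9 and 25.4 CPM without. The groups were apart by far more than the replicates were, the log2 change was 0.64 (SE 0.0834, edgeR adjusted p = 5.43e-07), and the call on Junb held in all 8 alternatives. The RNA of Socs3 (chromosome 11, 117966079 to 117970336) stood at 172 and 174 CPM in treated and 143 and 146 CPM in untreated cells. This smaller change was 0.26 on the log2 scale (SE 0.0505, edgeR adjusted p = 0.00435). The replicates lay close together, and the call rested on both treated libraries. Its adjusted p was 0.334 with treated library A left out and 0.325 with treated library B left out. The number of all genes called was itself unstable, at 14 without treated library A and 267 without untreated library B, with 8 in DESeq2, which counted Junb and Socs3.

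The other genes of the set did not pass in RNA. Ier2, a nuclear early response protein, had 197 and 198 CPM in treated and 181 and 174 CPM in untreated cells, so the groups did not overlap. Its log2 change was 0.16 (SE 0.0493, edgeR adjusted p = 0.484), and it passed in 1 alternative, without untreated library A (adjusted p = 0.0352). Fos, the partner of Jun in classical AP-1 (chromosome 12, 85473890 to 85477274), had few RNA reads, 15 and 20 counts in treated and 10 and 15 in untreated libraries, with a log2 change of 0.67 and an SE of 0.526. Fosl2, a Fos family member, had 28 and 11 counts with dTAG-13 and 17 and 14 without, and its libraries overlapped. For Egr1, the zinc finger factor induced by growth signals (chromosome 18, 34861207 to 34864956), the RNA counts were 13 and 11 in treated and 6 and 16 in untreated cells. Ier3, an early response gene linked to cell survival, had 25 and 27 counts with dTAG-13 and 50 and 26 without. At these depths the 95% intervals of the log2 change were wide, from −0.39 to 1.72 for Fos, −0.5 to 1.43 for Fosl2, −0.92 to 1.48 for Egr1 and −1.09 to 0.36 for Ier3. Jund (3 and 3 counts treated, 8 and 10 untreated) and Fosl1 (1 and 0 treated, 0 and 3 untreated) did not pass the filter and got no test.

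**Figure D1:**
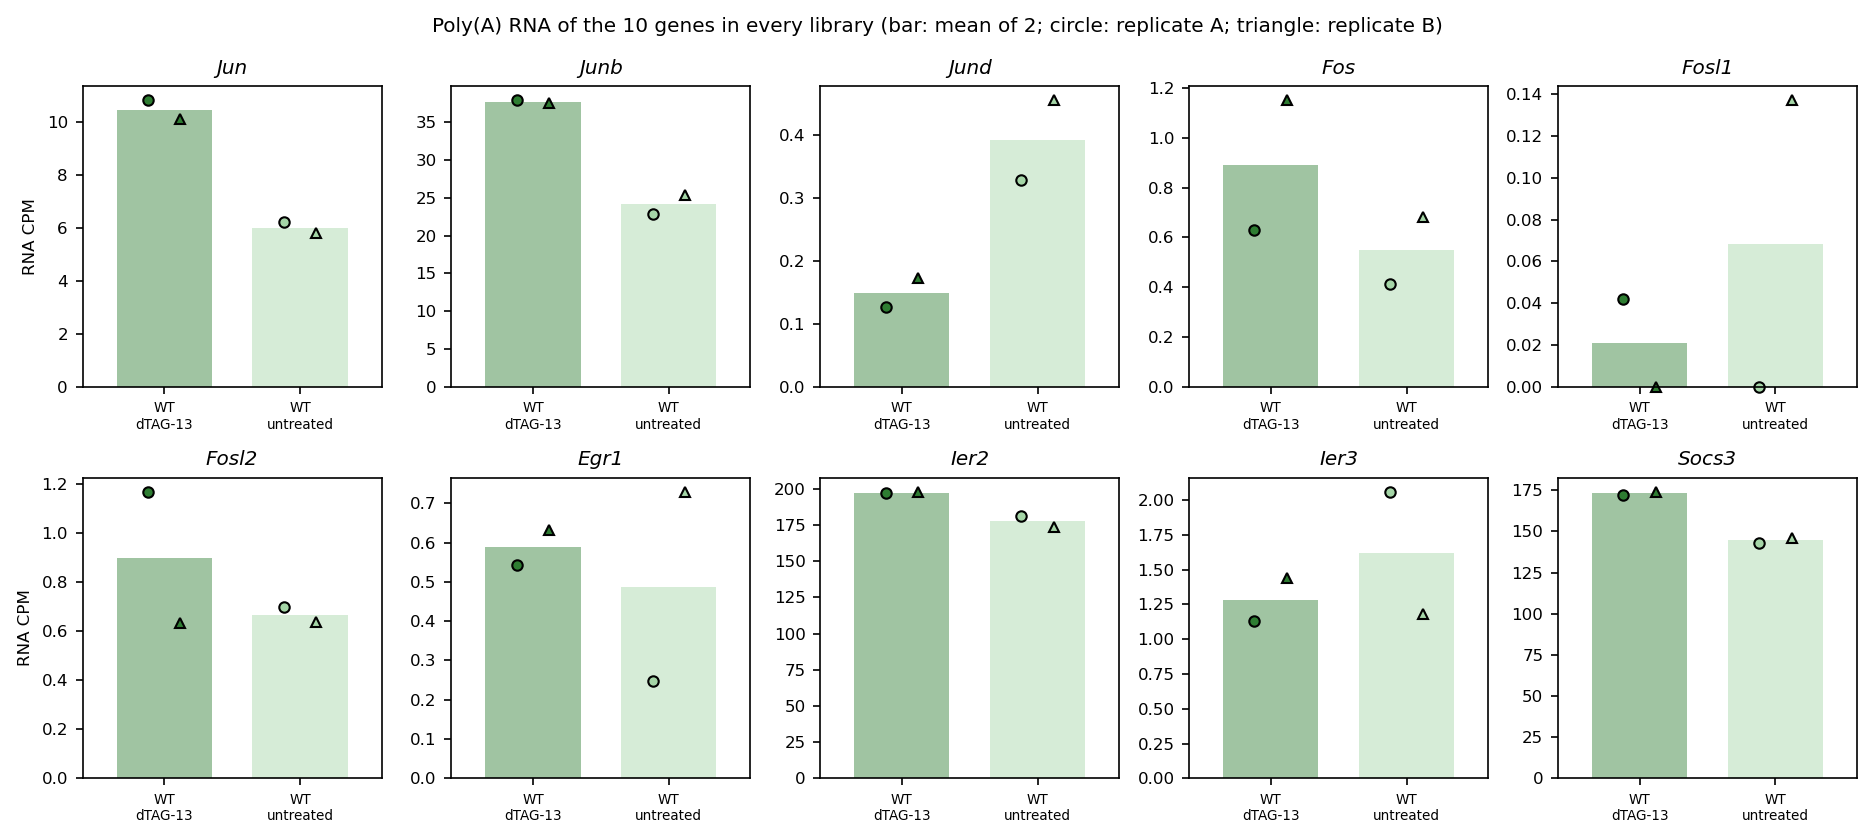
Poly(A) RNA of each of the 10 genes in CPM (y axes, each from 0), in treated (left) and untreated (right) wild-type cells, with bars for the mean of 2 libraries and points for replicates A and B. Both treated libraries lie above both untreated ones for Jun, Junb, Ier2 and Socs3, and below them for Jund, which had at most 10 counts per library. The share of all genes separated in this way was not computed.

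Footprints measure the share of all ribosomes that sat on these mRNAs. In wild-type cells none of the 8 tested genes passed in edgeR (Fosl1 and Fosl2 were under the filter), against 4.88% of all 12267 genes tested, of which 361 were higher and 238 lower after treatment. At an unadjusted p under 0.05 there were 3 of the 8, Jun, Ier2 and Socs3, where the share of all genes was 19%, and DESeq2 called 2, Ier2 and Socs3. DESeq2 gave no adjusted p here for Jun, Fos and Egr1, so it could not call them. The median log2 change was 0.15 for the 8 genes and −0.01 over all genes. The 599 calls over all genes became 197 to 334 when untreated wild-type library A or any 1 treated library of either genotype was left out, and 19 with wild-type cells fitted alone.

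Jun had 3.58 and 3.72 footprint CPM in treated and 2.3 and 2.23 CPM in untreated wild-type cells. The groups were separate, but they rested on 27 to 52 counts per library, and the log2 change of 0.69 had an SE of 0.299 (edgeR adjusted p = 0.228). Junb had 27.6 and 19.9 footprint CPM with dTAG-13 and 17.4 and 21.4 CPM without, an overlap, with a log2 change of 0.28 (SE 0.179). Jund, the Jun family member known for steady expression (chromosome 8, 70697739 to 70700616), had 48 and 44.9 CPM in treated and 54 and 44.4 CPM in untreated wild-type cells and a log2 change of −0.09 (SE 0.152). Ier2 (chromosome 8, 84661331 to 84662852) had 198 and 164 footprint CPM with dTAG-13 and 139 and 121 CPM without. Both treated libraries were above both untreated ones, with a log2 change of 0.48 (SE 0.149, edgeR adjusted p = 0.0921). Ier3 (chromosome 17, 35821713 to 35822911) went the other way in its libraries, at 13.8 and 13.7 CPM treated and 21.6 and 14.8 CPM untreated, with a log2 change of −0.41 (SE 0.22, edgeR adjusted p = 0.341).

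Socs3, whose mRNA rose, had 37.2 and 20.3 footprint CPM in treated wild-type cells and 53.3 and 48.5 CPM in untreated ones. Both treated libraries were below both untreated ones, yet they were far apart from each other, and the log2 change of −0.86 (SE 0.224, 95% interval −1.35 to −0.37) narrowly missed the threshold at an edgeR adjusted p of 0.0521. The size of this change depended on which treated library was kept. With treated library A left out it was −1.33 (edgeR adjusted p = 0.00588), and with B left out it was −0.45 (adjusted p = 0.232).

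In Gcn2 knockout cells 3 of the 8 tested genes passed, against 8.88% of all genes (388 higher, 701 lower). Jund and Ier2 rose in footprints, by 1.45-fold and 1.72-fold, and Socs3 fell 1.85-fold. Without adjustment, 5 of the 8 had an edgeR p under 0.05, where the share of all genes was 24.5%. The median log2 change was 0.30 for the 8 genes and 0.04 over all genes. The 1089 calls over all genes became 215 to 601 when 1 knockout library was left out.

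Jund had 49.8 and 63.6 footprint CPM in treated and 36.8 and 41.3 CPM in untreated knockout cells, with a log2 change of 0.54 (SE 0.151, edgeR adjusted p = 0.0425). Ier2 had 206 and 231 CPM with dTAG-13 and 110 and 144 CPM without, and its treated libraries lay well above the untreated ones, with a log2 change of 0.78 (SE 0.149, edgeR adjusted p = 0.00625). Socs3 had 24.7 and 26.7 CPM in treated and 42.6 and 52.5 CPM in untreated knockout cells. Here, unlike in wild-type cells, the treated libraries lay close together, and the log2 change of −0.89 (SE 0.222, edgeR adjusted p = 0.0289) was nearly that seen with Gcn2 intact. The calls on Jund and Socs3 were lost when any 1 of the 4 knockout libraries was left out. Jund also lost its call without treated wild-type library B, with adjusted p from 0.0542 to 0.525 over these 5 fits, and for Socs3 the 4 fits gave 0.0763 to 0.202. The call on Ier2 was lost without untreated knockout library A (adjusted p = 0.0762) and without treated knockout library B (adjusted p = 0.13).

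Junb had 24 and 23.8 CPM in treated and 16.1 and 16.9 CPM in untreated knockout cells. The replicates were tight and the groups separate, but the log2 change of 0.53 (SE 0.178) did not pass in the joint fit of both genotypes (edgeR adjusted p = 0.0818). It passed with the knockout libraries fitted alone (adjusted p = 0.0253). Jun, at 2.67 and 4.26 CPM with dTAG-13 and 3.92 and 2.8 CPM without, overlapped between the groups (log2 change 0.06, SE 0.281). Fos also overlapped, with 1.89 and 2.82 CPM treated and 3.08 and 1.98 CPM untreated. Ier3 had 9.46 and 14.2 CPM in treated and 15 and 15 CPM in untreated knockout cells, so the treated libraries were again the lower ones, at a log2 change of −0.33 (SE 0.22, edgeR adjusted p = 0.38). Egr1 had 13 and 11 counts with dTAG-13 and 8 and 7 counts without. Its log2 change of 1.09 had an SE of 0.48 (edgeR adjusted p = 0.181), and the treated libraries lay above the untreated ones.

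**Figure D2:**
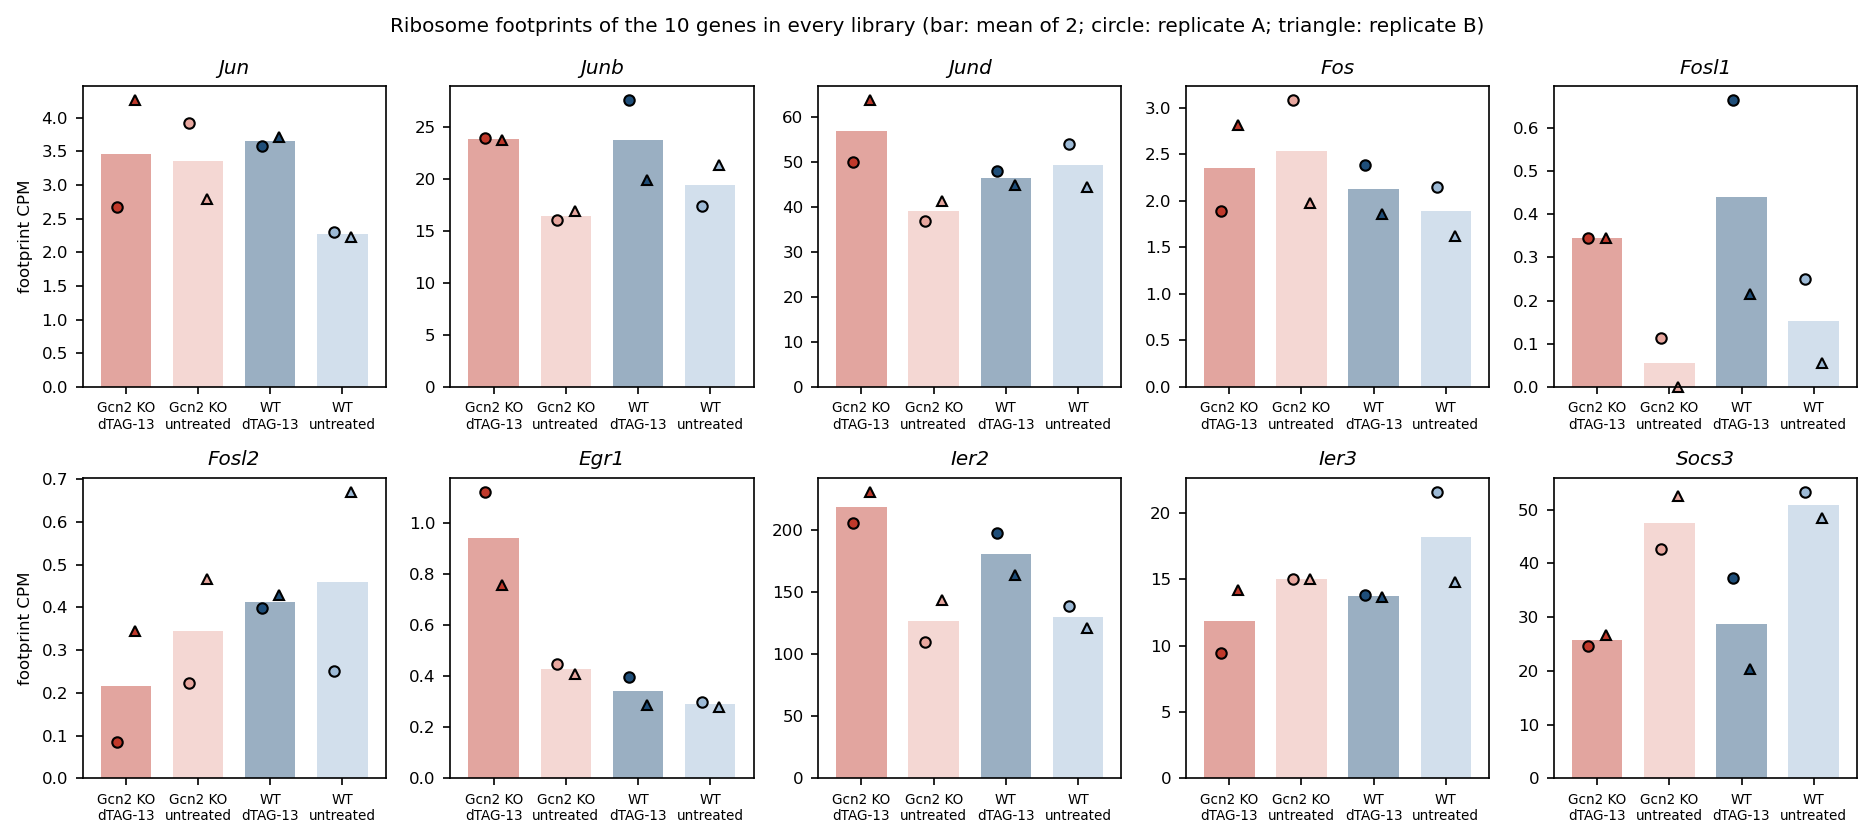
Ribosome footprints of each of the 10 genes in CPM (y axes, each from 0), by group, with treated left of untreated and Gcn2 knockout left of wild type, bars for the mean of 2 libraries and points for replicates A and B. Socs3 and Ier3 are lower in both treated libraries than in both untreated ones in each genotype, and Ier2 is higher. The share of all genes separated in this way was not computed.

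Fos in wild-type cells had 2.39 and 1.86 footprint CPM with dTAG-13 and 2.15 and 1.62 CPM without, from 18 to 43 counts per library, and the groups overlapped. The remaining Fos family members were near the limit of detection. Fosl1 had 4 and 5 footprint counts in treated and 2 and 0 in untreated knockout libraries, against 5 and 3 in treated and 5 and 1 in untreated wild-type ones. In RefSeq its gene (chromosome 19, 5447698 to 5455938) overlaps Ccdc85b, and the sources used here do not say how the authors assigned reads there. Fosl2 (chromosome 5, 32136472 to 32157840) had 1 and 5 counts in treated and 4 and 8 in untreated knockout footprints, and 3 and 6 in treated and 5 and 12 in untreated wild-type ones. Egr1 had 3 and 4 footprint counts in treated and 6 and 5 in untreated wild-type libraries. Fosl1 and Fosl2 were under the filter and not tested in footprints. Both treated knockout libraries of Fosl1 lay above both untreated ones, from at most 5 counts each, and the other groups of both genes overlapped. For Egr1 in wild-type cells the 95% interval of the log2 change ran from −1.26 to 1.59.

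The question whether Gcn2 alters the response was tested as the difference between the change in knockout and the change in wild-type cells. None of the 8 tested genes passed in edgeR, against 0.0489% of all genes. DESeq2 called none of Ier2, Junb, Jund and Socs3, and gave no adjusted p for Jun, Fos, Egr1 and Ier3. At an unadjusted p under 0.05 there was 1 (Jund), where the share of all genes was 10%. For Jund the knockout change was higher than the wild-type change by 0.63 on the log2 scale (SE 0.214, 95% interval 0.16 to 1.09, edgeR adjusted p = 0.332). For Jun it was lower, at −0.63 (SE 0.409, interval −1.51 to 0.26). The intervals stayed wide, and for Socs3, with a difference of −0.03, it ran from −0.72 to 0.65, so a sizeable influence of Gcn2 on Socs3 in either direction was not resolved with 2 libraries per group. For Ier2 the interval was −0.15 to 0.76 around 0.31. Jund, called in the knockout and not in the wild type, was thus not shown to respond differently between the genotypes.

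Before treatment, knockout and wild-type cells were compared directly. None of the 8 tested genes passed in edgeR, against 0.00815% of all genes. DESeq2 called none either, but gave no adjusted p for Egr1. At an unadjusted p under 0.05 there was again 1 (Jund), where the share of all genes was 5.98%. Jund had a log2 difference of −0.34 (SE 0.15), knockout over wild type, and Jun one of 0.57 (SE 0.283). Socs3 and Ier2 had differences of −0.1 (SE 0.213) and −0.04 (SE 0.149). The same untreated libraries enter the treatment changes of each genotype, so these values and the changes above are not independent.

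**Figure D3:**
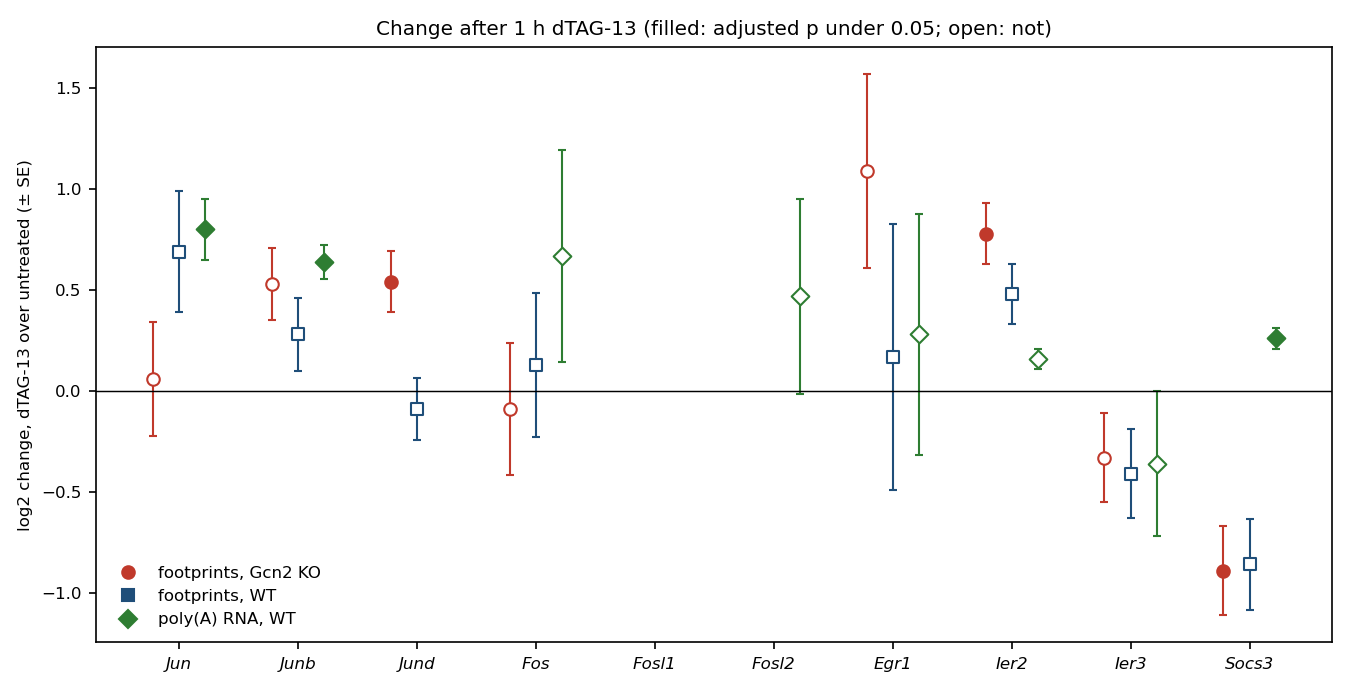
Log2 change after dTAG-13 over untreated (y axis) for each of the 10 genes (x axis), in knockout footprints, wild-type footprints and wild-type RNA, with bars of 1 SE and filled symbols for an adjusted p under 0.05. Socs3 is at −0.89 and −0.86 in footprints and 0.26 in RNA, and a gene without a symbol for an assay was under the filter.

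RNA and footprint changes were then set against each other in wild-type cells, as translational efficiency, the footprint change minus the RNA change in 1 model over both assays. Counts per gene do not show where on an mRNA the footprints lay. Ribosomes halted at stop codons and translating ones therefore cannot be told apart. Efficiency here means footprints per mRNA and is not a measure of protein made. None of the 9 tested genes passed in edgeR, against 1.47% of all 12887 genes, and DESeq2 called 1 (Socs3). DESeq2 gave no adjusted p here for Jun, Fos, Fosl2, Egr1 and Ier3. At an unadjusted p under 0.05 there were 2 (Jund and Socs3), where the share of all genes was 14.2%. The median was −0.11 for the 9 genes and 0 over all genes. The 190 calls over all genes became 0 when any 1 RNA library was left out and 671 without untreated footprint library B. This comparison uses the same wild-type libraries as the ones above.

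Socs3 had the lowest value of the 9, with a log2 change in efficiency of −1.13 (SE 0.28, 95% interval −1.76 to −0.5, edgeR adjusted p = 0.0861), with RNA higher and footprints lower in all treated wild-type libraries than in all untreated ones. The adjusted p for Socs3 was 0.00295 in DESeq2. It was 0.0032 without treated footprint library A and 0.0332 without treated footprint library B, where the efficiency change was −1.59 and −0.72. With any 1 RNA library left out it was 0.316 to 0.337, without untreated footprint library A 0.155, without untreated footprint library B 0.0767, and with no filter 0.21. For Jun the footprint and RNA changes were alike in size, and the efficiency change was −0.11 with an interval of −0.7 to 0.48. For Junb it was −0.37 (interval −0.87 to 0.12). Ier2 had 0.32 (SE 0.152), and Ier3, which passed in neither assay and whose RNA libraries overlapped, had −0.05 (SE 0.436). Jund had the highest value, 1.29 (SE 0.542, edgeR adjusted p = 0.318), from no more than 10 RNA counts per library.

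**Figure D4:**
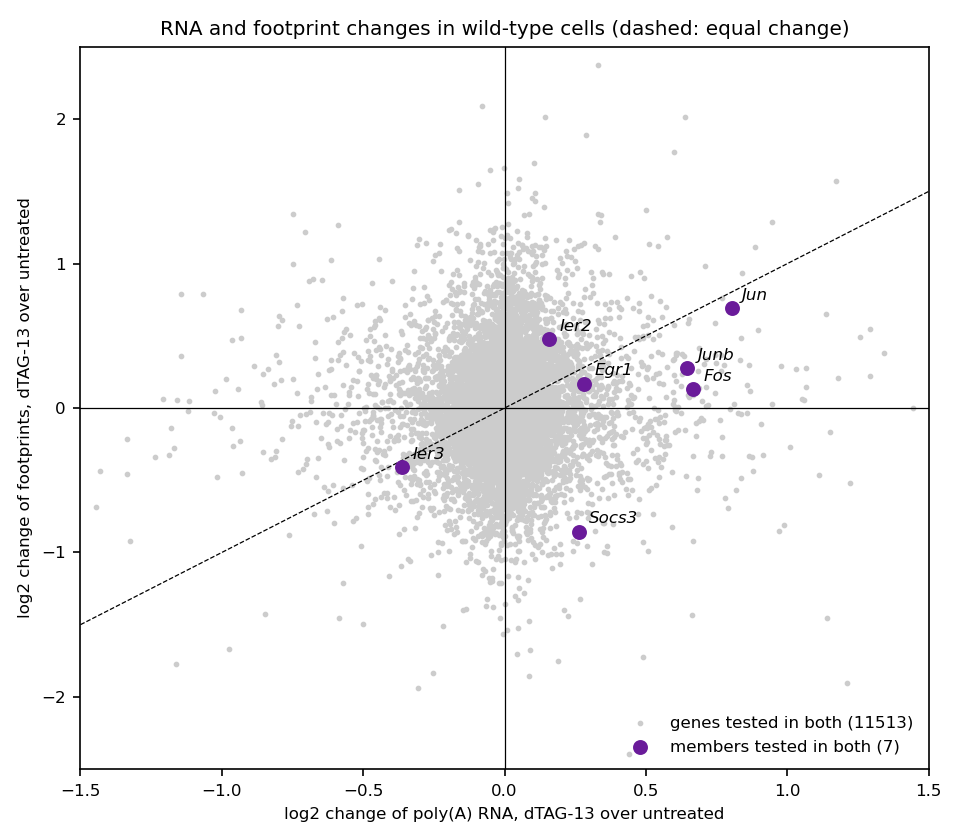
Log2 change in poly(A) RNA (x axis) against log2 change in footprints (y axis) in wild-type cells, dTAG-13 over untreated, for 11513 genes tested in both (grey; 5 lie outside the axes) and 7 genes of the set (purple), with a dashed line of equal change. Jun lies close to the line, Junb and Fos below it on the right, and Socs3 to the right of 0 in RNA and well below 0 in footprints.

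The ratio of footprint to RNA CPM, in which length cancels only if both were counted over the same stretch, spread widely over the set. In treated wild-type cells it was 0.166 for Socs3, against 0.352 in untreated ones. Over 12652 genes in untreated cells the median ratio was 0.735, and Socs3 was at percentile 20.3 and Jun at percentile 22.5. Junb (percentile 54.5) and Ier2 (percentile 50) were near the middle. Fos was at percentile 91.3, Ier3 at 96.5 and Jund at 99.3. For Jund the ratio was 312 in treated and 125 in untreated cells, since it had 44.4 to 54 footprint CPM over the 4 wild-type libraries but at most 0.455 CPM in RNA. Jund was 1 of 132 genes (1.72%) with under 1 RNA CPM among 7663 with at least 10 footprint CPM. Many of the 132 were histone genes, H4c6 among them with 439 footprint and 0.495 RNA CPM in untreated wild-type cells. The 132 are thus of mixed kinds, and the share is not one of genes like Jund alone. The stem cell factor Pou5f1 was also out of proportion, with 1050 to 1400 footprint CPM but 4.89 to 6.88 RNA CPM over all libraries. The cause of such low RNA counts was not tested. The percentiles and the RNA and efficiency changes of Jund, of Fos (10 to 20 RNA counts per library) and of Ier3 (25 to 50) rest on them.

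Genes around the set were described by lists. Of 48 other immediate early genes, 42 were tested in RNA and 4 rose (9.52%, against 0.163% of all genes called), with none lower. The list's median log2 change was 0.12. Without adjustment, 18 of the 42 had an edgeR p under 0.05 in RNA, where the share of all genes was 5.13%. Together with Jun, Junb and Socs3 this makes 7 of the 26 genes called in RNA. Like the set, the lists were chosen with earlier results of these data known, so their shares carry the same limit. Ccn2 and Ccn1, secreted matrix proteins induced by YAP and serum response factor, had RNA log2 changes of 0.84 (SE 0.0789, edgeR adjusted p = 3.34e-11) and 0.74 (SE 0.0762, adjusted p = 3.86e-10). Their wild-type footprint changes were −0.04 (SE 0.168) for Ccn2 and 0.37 (SE 0.244) for Ccn1, and neither passed. Myc and Id3, regulators of growth and differentiation, each had an RNA log2 change of 0.34, with edgeR adjusted p of 0.0148 and 0.0301. Both also rose in wild-type footprints, where the log2 changes were 1.29 for Myc (SE 0.32, adjusted p = 0.0382) and 1.34 for Id3 (SE 0.25, adjusted p = 0.0127). In knockout footprints Myc had 0.80 (SE 0.331) and Id3 0.26 (SE 0.255), and neither passed. The RNA calls on Ccn2 and Ccn1 held in all 8 alternatives. That on Myc was lost in DESeq2 (adjusted p = 0.512) and without untreated library A or either treated one (0.182 to 0.248). That on Id3 was lost in DESeq2 (adjusted p = 0.895) and without treated library B (0.999). In wild-type footprints Myc lost its call when untreated wild-type library A or any 1 treated library of either genotype was left out (0.0549 to 0.171), and Id3 without treated wild-type library A (0.0573). DESeq2 gave no adjusted p for Myc there.

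In footprints the 43 tested genes of the same list had 6.98% called in either genotype, against 8.88% of all genes in knockout and 4.88% in wild-type cells. In knockout cells 1 was higher, the stress gene Gadd45g at 0.88 (SE 0.245), and 2 were lower, the survival protein Mcl1 at −0.89 (SE 0.139) and the antiproliferative Btg1 at −1.15 (SE 0.252). In wild-type cells Myc and Id3 were higher and 1 gene was lower, the antiproliferative Tob1 at −0.54 (SE 0.134). The list's median log2 change was −0.06 in knockout and 0 in wild-type footprints. The call on Mcl1 held in every alternative. Leaving out any 1 wild-type or treated knockout library ended the call on Tob1 (edgeR adjusted p = 0.0895 to 0.156). Leaving out any 1 knockout library ended that on Gadd45g (0.0677 to 0.308), and any 1 except untreated B that on Btg1 (0.0867 to 0.14).

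Of 13 AP-1 partners, the ATF and related zipper proteins, 8 were tested in footprints and 1 passed, the same gene in both genotypes. Atf2, which pairs with Jun, fell in both genotypes, with log2 changes of −1.39 in knockout (SE 0.152, edgeR adjusted p = 0.000271) and −0.94 in wild-type cells (SE 0.149, adjusted p = 0.00455). Its RNA did not pass (−0.07, SE 0.0608), and its efficiency fell, at −0.87 (SE 0.133, adjusted p = 0.0209). The knockout call on Atf2 held in every alternative, and its efficiency call was lost when any 1 RNA library was left out (0.157 to 0.178).

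Of 30 genes of the MAP kinase and serum response factor route, 29 were tested in footprints, and 1 fell in knockout (3.45%, against 8.88% of all genes called) and 2 in wild-type cells (6.9%, against 4.88%). They were Map2k3, a kinase upstream of p38, at −0.66 in knockout (SE 0.143) and −0.69 in wild-type cells (SE 0.146), and the related Map2k6 at −0.86 in wild-type cells (SE 0.195). In knockout cells Map2k6 did not pass (−0.31, SE 0.188), and it was not shown to differ between genotypes (edgeR adjusted p = 0.539). Of 22 genes of LIF, STAT3 and SOCS signalling, all tested, 2 fell in knockout footprints, the kinase Pim1 at −0.55 (SE 0.146) and the phosphatase Ptpn6 at −0.42 (SE 0.121), and 1 in wild-type footprints, Bcl3 at −0.65 (SE 0.165), which is 9.09% and 4.55% of the list, near the same shares of all genes. The median footprint change of this list was −0.20 in knockout and −0.12 in wild-type cells, against 0.04 and −0.01 over all genes. Each of these calls was lost in some fits with 1 library left out. With untreated library B or either treated library of the same genotype left out, Map2k3 lost its call in knockout cells (edgeR adjusted p = 0.0638 to 0.188) and in wild-type cells (0.0565 to 0.0888), and Pim1 in knockout cells (0.201 to 0.217), where its change was −0.28 without untreated library B. Map2k6 and Bcl3 lost theirs when untreated wild-type library A or any 1 treated library of either genotype was left out (0.0517 to 0.16 for Map2k6 and 0.0775 to 0.22 for Bcl3). Ptpn6 lost its call when any 1 knockout library or treated wild-type library A was left out (0.0504 to 0.381).

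Of 23 genes of AU-rich element and deadenylation-linked mRNA decay, 1 rose and 3 fell in knockout footprints (17.4%, against 8.88% of all genes called), and 1 rose and 1 fell in wild-type footprints (8.7%, against 4.88%). Xrn1, the exonuclease that degrades decapped mRNA, rose in both, with log2 changes of 0.50 in knockout (SE 0.14) and 1.01 in wild-type cells (SE 0.141, edgeR adjusted p = 0.00244). Cnot1 and Cnot3, subunits of the CCR4-NOT deadenylase, fell in knockout cells, at −0.70 (SE 0.11) and −0.64 (SE 0.113). The wild-type call on Xrn1 held with each library left out but not with that genotype fitted alone (edgeR adjusted p = 0.0513), and its knockout call was lost when untreated knockout library B or any 1 treated library but wild-type A was left out (edgeR adjusted p = 0.0549 to 0.305). Cnot1 lost its call without treated knockout library A (0.0504), and Cnot3 without treated knockout library A or B (0.0625 and 0.0709). The efficiency of Xrn1 rose, at 0.90 (SE 0.149, adjusted p = 0.0225), a call that was lost when any 1 RNA library was left out (0.139 to 0.203). Tob1 and Btg1, given above, are on this list too.

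With wild-type cells fitted alone, all 8 calls on list genes in wild-type footprints, Atf2 and Xrn1 included, were lost (adjusted p = 0.0513 to 0.151). In RNA the 4 lists other than the immediate early genes had no call in edgeR or DESeq2, and at an unadjusted p under 0.05 they held 0 of 7 AP-1 partners, 0 of 28 MAP kinase genes, 1 of 22 LIF pathway genes and 2 of 23 decay genes, against 5.13% of all genes. In the difference between the genotypes' changes none of the 119 tested genes of the 5 lists passed in edgeR, 13 had an unadjusted p under 0.05 (10% of all genes did), and DESeq2 called 1 (Cnot1). Before treatment none of the 119 passed in edgeR or DESeq2, and 9 had an unadjusted p under 0.05 (5.98% of all genes did).

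**Figure D5:**
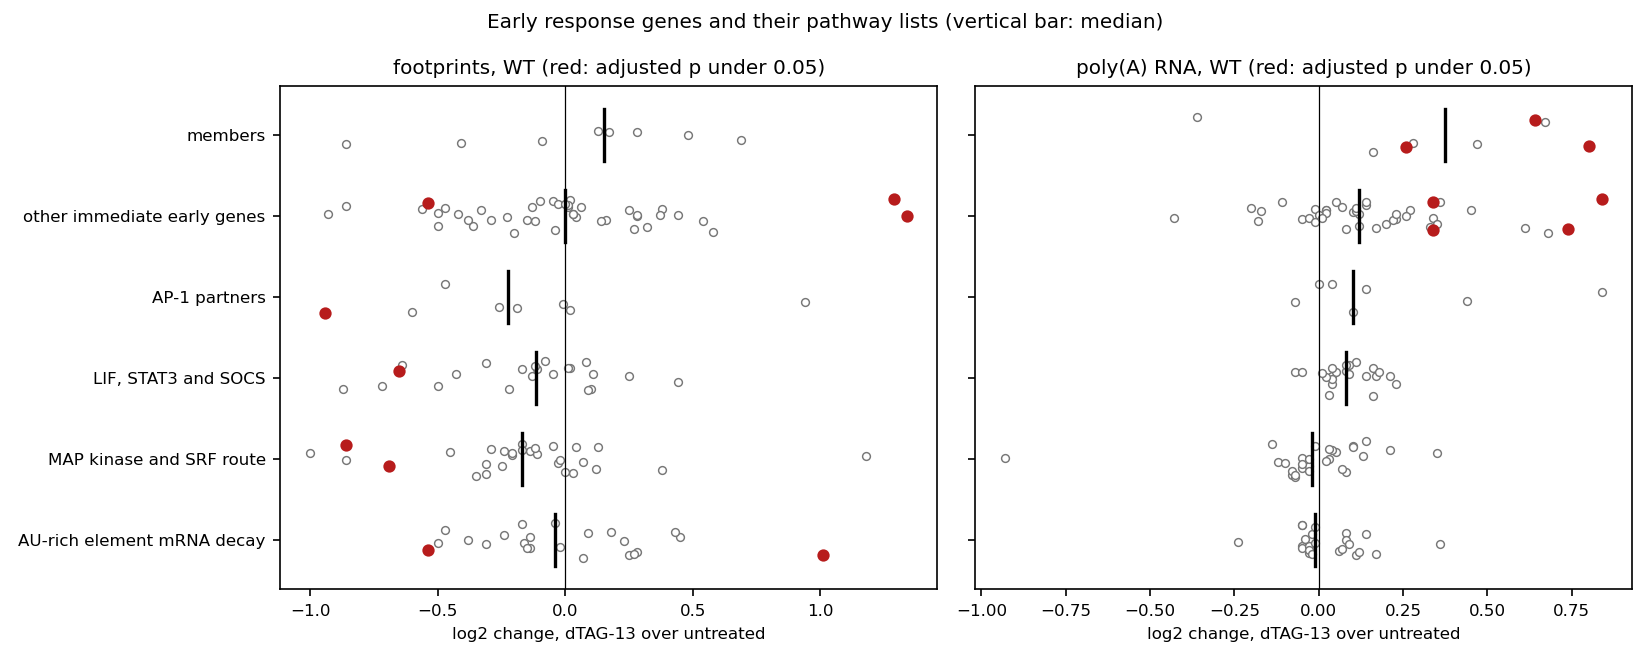
Log2 change in wild-type footprints (left) and poly(A) RNA (right), dTAG-13 over untreated (x axes), for every tested gene of the set and of 5 related lists (rows), with a vertical bar at each list's median and red points for an adjusted p under 0.05. In RNA the red points, 3 in the set and 4 among other immediate early genes, all lie to the right of 0.

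The genes whose footprint profile over the 8 libraries was most like that of a member were sought among 8099 genes. As a description over libraries that share their groups and depths, Pearson's r of log2 CPM with Socs3 was 0.986 for Prcc and 0.972 for Grhl3. For Ier2 the nearest were the replication-dependent histones H4c6 and H2ac12, both with r of 0.987. Junb was nearest to Zfp746 (0.948) and Clk1 (0.941), Jund to Zbtb34 (0.921) and Mex3d (0.896), and Ier3 to Abi1 (0.951) and Jtb (0.925).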

How the data were processed

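The authors deposited raw read counts per gene symbol, 1 table for footprints and 1 for poly(A) RNA. Per the submitters' processing notes, the tools were HISAT2 2.1.0, cutadapt and CASAVA 1.4, with build mm10. The counting tool, annotation, strand setting and handling of reads that map to several genes were not given in the sources used here. Each column was assigned by genotype, treatment and letter, where treated knockout replicate B has a description that names A's column, so the letter in its title was used.

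Counts were tested in R 4.3.3 with edgeR 4.0.16 (filterByExpr, minimum count 10; TMM; robust quasi-likelihood fit; Benjamini-Hochberg over all genes tested, two-sided threshold 0.05). All 8 footprint libraries shared 1 fit (4 residual degrees of freedom), the 4 RNA libraries had their own (2), and efficiency was an assay-by-treatment term over 8 wild-type libraries (4). SEs come from the change and its F statistic. The fit shares estimates of spread between genes, so an SE does not rest on that gene's replicates alone. Alternatives were DESeq2 1.42.0, upper-quartile factors, no filter, joint TMM over assays, a replicate block, 1 genotype alone and each library left out. Genes for which DESeq2 gave no adjusted p could not be called by it. The fits were tested on simulated data with the same spread for every gene and with changes placed only in genes with higher counts. That test does not speak for members with few counts or for spread that differs between genes. Joining the tables matched 20050 symbols as written and 84 by RefSeq synonyms. Every member was named, with up to 4 called genes per list and comparison, and the 2 most similar genes per member with at least 10 footprint CPM. The members and lists were chosen with earlier results of these data known.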

Additional observations from a re-analysis of the deposited data

How the results depend on the processing

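For the 10 genes, 579 values were recomputed under alternatives, of which 517 kept their direction and side of the threshold, 15 lost and 18 gained a call, and 29 changed sign. Of 66 such values for calls reported above, 51 kept the call and 15 lost it, and none changed sign. Footprint calls in wild-type cells, 0 of 8, became 2 with DESeq2, 1 with upper-quartile factors, 2 with no filter, 1 with the replicate block, 3 with the genotype alone with replicate block (chosen after seeing the data) and 0 to 1 with a library left out. Knockout footprint calls, 3, ranged from 0 to 3 with a library left out, and RNA calls, 3, from 1 to 4. Efficiency calls, 0, became 1 with DESeq2, 2 with the replicate block (Ier2 and Socs3) and 0 to 1 with a library left out. The replicate block was not taken as pairing, since the labels name no shared batch. Letters deviated together by r of 0.49 between untreated and treated wild-type footprints, the pair compared in that genotype. Over the other pairs of footprint groups r was 0.01 to 0.13, and in RNA it was 0.015. Whether the wild-type replicates were paired cannot be told, and the block raised their count of called members from 0 to 1.

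Signs changed for values that were not called. The efficiency of Ier3 was 0.02 under the block. With a library left out, wild-type footprint changes ran from −0.22 to 0.06 for Jund, −0.06 to 0.35 for Fos and −0.02 to 0.45 for Egr1, and knockout ones from −0.37 to 0.32 for Jun and −0.46 to 0.26 for Fos. Differences between the genotypes' changes ran from −0.02 to 0.50 for Junb, −0.59 to 0.13 for Fos, −0.29 to 0.32 for Ier3 and −0.47 to 0.44 for Socs3. Untreated differences ran from −0.25 to 0.15 for Ier2, −0.53 to 0.02 for Ier3 and −0.25 to 0.04 for Socs3. RNA changes ran from −0.08 to 0.80 for Fosl2, −0.32 to 1.23 for Egr1 and −0.69 to 0.10 for Ier3, and efficiency from −1.14 to 0.25 for Fosl2, −1.05 to 0.48 for Egr1 and −0.51 to 0.28 for Ier3. The cause was not tested.

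Over all genes, wild-type footprint calls (599) were 1048 with no filter, 931 with the block, 19 with the genotype alone, 2533 with both and 197 to 659 with a library left out. Knockout calls (1089) were 1658 with no filter, 1893 with the genotype alone, 2640 with both and 215 to 1353. Calls on the genotype difference (6) were 116 with DESeq2, 192 with no filter, 39 with the block and 0 to 32, and untreated ones (1) were 31, 113, 14 and 1 to 10. RNA calls (26) were 8 with DESeq2, 16 with the block and 14 to 267, and efficiency calls (190) were 435, 1561 and 0 to 671, or 459 with no filter. With 2 libraries a group, leaving 1 out assumes that the lone library varies like the other groups. Of the calls on genes of the lists, 4 of 24 held in every alternative run on them (added after seeing the data). Under the block the RNA calls on Myc (adjusted p = 0.0619) and Id3 (0.121) were lost and no other.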

Other observations

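Of the genes with RNA calls outside the set, Ccn2 and Ccn1 could also be followed by library. Ccn2 had 44.7 and 50.7 RNA CPM in treated and 27.4 and 25.9 CPM in untreated wild-type cells. Its footprints were at 64 and 65 CPM in treated and 66.9 and 55.8 CPM in untreated knockout cells, against 40.2 and 47.9 CPM in treated and 37.9 and 53.2 CPM in untreated wild-type cells, so they overlapped in both genotypes. The efficiency change of Ccn2 was −0.88 (SE 0.223) with an edgeR adjusted p of 0.0864, which did not pass, while DESeq2 called it. Ccn1 had 46.5 and 51.6 RNA CPM with dTAG-13 and 29.7 and 28.6 CPM without. Its footprints were at 48.1 and 40.6 CPM in treated and 35.6 and 28 CPM in untreated knockout cells, which did not overlap, and at 29.1 and 46.2 CPM in treated and 23 and 36 CPM in untreated wild-type cells, which did.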
